A study of Mus musculus with 9 samples.

Results

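The route by which tumour-specific T cells reached the omentum was compared in 6 of the 9 libraries of the series, 3 from mice given the cells into the peritoneal cavity (IP) and 3 from mice given them into a vein (IV). The members were the libraries with these 2 labels, and their transcriptomes were described gene by gene. All 9 animals were C57BL/6 mice of 7 to 10 weeks that received 500000 B16-OVA cells, a mouse melanoma line expressing ovalbumin, into the peritoneal cavity. On day 6 they were randomized to PBS or to OVA-specific OT-I T cells electroporated with IL-12 mRNA, and omenta were taken 18 h later for poly(A) RNA sequencing. The IP group held mice numbered 2, 3 and 4, the IV group mice numbered 1, 2 and 4, and the PBS group, used here as the baseline and to estimate the spread, mice numbered 1, 2 and 3. The labels do not name the route of PBS, and no group received T cells without the IL-12 mRNA, so that the parts of the cells and of the cytokine cannot be told apart.

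The omentum is a sheet of adipose tissue covered by mesothelium, with clusters of lymphocytes and macrophages (milky spots) that take up cells and fluid from the peritoneal cavity. IL-12 is a heterodimeric cytokine that acts on T cells and NK cells through STAT4 and drives production of interferon-gamma. Interferon-gamma in turn acts on many cell types, in which it raises antigen presentation, chemokines and, in macrophages, nitric oxide synthesis.

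Several libraries stood apart before any gene was considered. Totals ranged from 25409924 to 32292732 counts in IP and from 7379798 (IV 2) to 41146527 (IV 4) in IV. In log2(CPM + 0.5), IV 4 lay closest to PBS 3, at r = 0.985 (across tested genes, which are no replicates). Its own group gave 0.961 (IV 1) and 0.968 (IV 2). The remaining libraries gave similar values: 0.963 for PBS 1, 0.966 for PBS 2, 0.969 for IP 2, 0.971 for IP 3 and 0.959 for IP 4. Nearness to PBS thus held for PBS 3 only, and its cause was not tested. Digestive enzyme transcripts of pancreatic acinar cells made up 2.25% of all counts in IP 4, 3.03% in IV 1 and 0.579% in IV 2. Their share was 0.0243% in IP 2, 0.0294% in IP 3 and 0.00128% in IV 4. Mitochondrial transcripts took 1.71% to 1.90% of the counts in IP and 2.15% to 2.25% in IV, with no overlap. Counts are therefore also given without IV 4 and without the 2 libraries above 2% acinar transcripts (IP 4 and IV 1). The labelled tissue was recognisable in every library: the adipocyte gene Adipoq had 29.4, 35.8 and 59.7 CPM in IP 2, IP 3 and IP 4 and 98.9, 86.2 and 66.3 CPM in IV 1, IV 2 and IV 4. The melanosome gene Pmel was far more abundant, with 3820.4, 4298 and 4349.9 and 7462, 5283 and 6610.0 CPM. All values below are given in these library orders, as TMM-scaled CPM.

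Counts on the genes of the IL-12 subunits were low at 18 h. Host transcripts are counted on the same genes, and whether the counts include electroporated mRNA was not tested. Il12b, the p40 subunit of IL-12, had 3.85, 4.78 and 3.71 CPM in IP and 1.56, 2.0 and 1.96 CPM in IV, with 0.437, 1.23 and 1.38 CPM in PBS. No IP value overlapped an IV value, but the difference was not called (log2 fold change 1.17 ± 0.38 (SE; edgeR adjusted p = 0.079)). It was called without PBS 1 (edgeR adjusted p = 0.0247). Il12a, the p35 subunit, did not pass the filter on low counts and had 10, 5 and 4 counts in IP against 4, 4 and 12 in IV.

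Of the 17123 genes tested, 1780 (10.4%) were called between the routes by edgeR's quasi-likelihood test at an adjusted p of at most 0.05, 1015 higher in IP (5.93%) and 765 higher in IV (4.47%). The median log2 fold change, IP minus IV, was 1.05 among the former, -1.11 among the latter and -0.02 over all tested genes. At least 4-fold differences were called for 195 genes higher in IP and 165 higher in IV, and differences under 2-fold for 477 and 350. By the deposited log2 CPM, which carry no TMM scaling and in which the median of all genes was -0.11, limma called 732 genes higher in IP and 1060 higher in IV, so that the share of calls higher in IP was 40.8% against 57.0% here. Without the filter on low counts, edgeR called 796 genes higher in IP and 788 higher in IV. With the filter, limma voom called 1130 and 636. The division of calls between the directions thus differed between fits that varied in scaling, test and genes tested, and the cause was not tested. Each of the 1780 genes kept its sign in these fits.

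Separation of the groups was more frequent than a call. The 3 IP values all lay outside the 3 IV values for 5379 genes (31.4%), above them for 3073 (17.9%) and below them for 2306 (13.5%). Of the separated genes 33.0% were called, and only 5 called genes were not separated (Kmo, Cfap46, Cd300e, Igfbp6 and Iglc1, all higher in IV on average and named here because they are the exceptions). A gap of at least 2-fold between the groups, from the lowest value of one to the highest value of the other, was found for 342 genes higher in IP (2.00%) and 193 higher in IV (1.13%), together 3.12% of the tested genes. Of these, 318 (1.86%) and 164 (0.958%) were also called. Without regard to the gap, 5.93% of the tested genes were called and separated with IP above, and 4.44% with IP below.

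**Figure D1:**
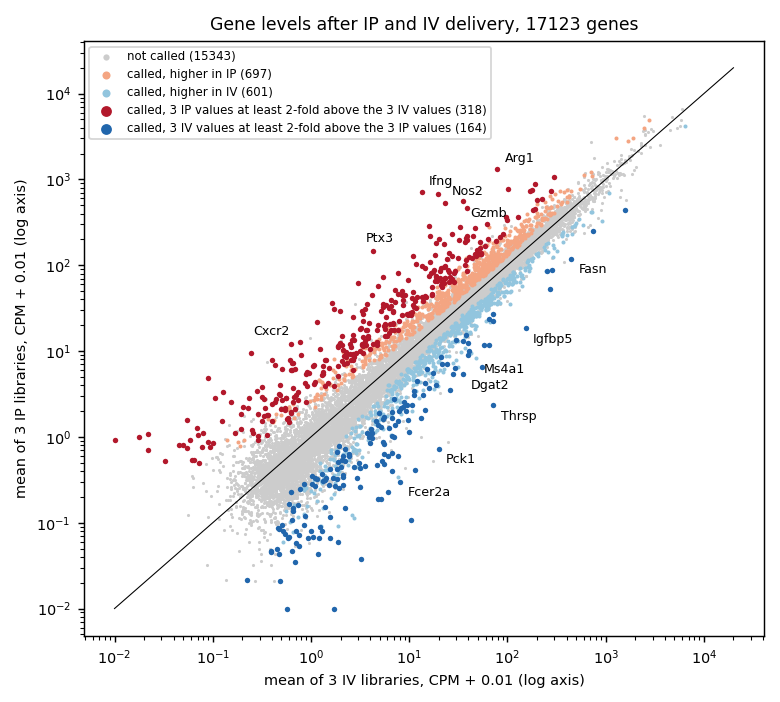
Mean level of each of the 17123 tested genes after IP (vertical) and IV delivery (horizontal), in CPM plus 0.01 on log axes; each point is a gene, coloured by its call and by whether the groups were at least 2-fold apart, and the line marks equal levels. Dark red points (318 genes) leave the diagonal farthest on the IP side, with Ifng, Nos2, Ptx3 and Arg1 among them, and dark blue points (164 genes) on the IV side, with Thrsp, Pck1 and Fcer2a.

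Single libraries moved these counts. Without IV 4 the number of called genes rose to 2873 (16.3%), 1709 higher in IP (9.71%) and 1164 higher in IV (6.61%), and 9625 genes were separated, 2 values standing against 3. The calls fell to 673 without IP 2, to 791 without IP 3 and to 1058 without IP 4, and to 903 without IP 4 and IV 1 together. Of the 1780 genes, 1571 (88.3%) were called again without IV 4, and all kept their sign in each of these fits. Among the 1015 genes called higher in IP, the highest IP value was that of IP 2 for 599, IP 3 for 273 and IP 4 for 143, and the highest IV value was that of IV 1 for 421.

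**Figure D2:**
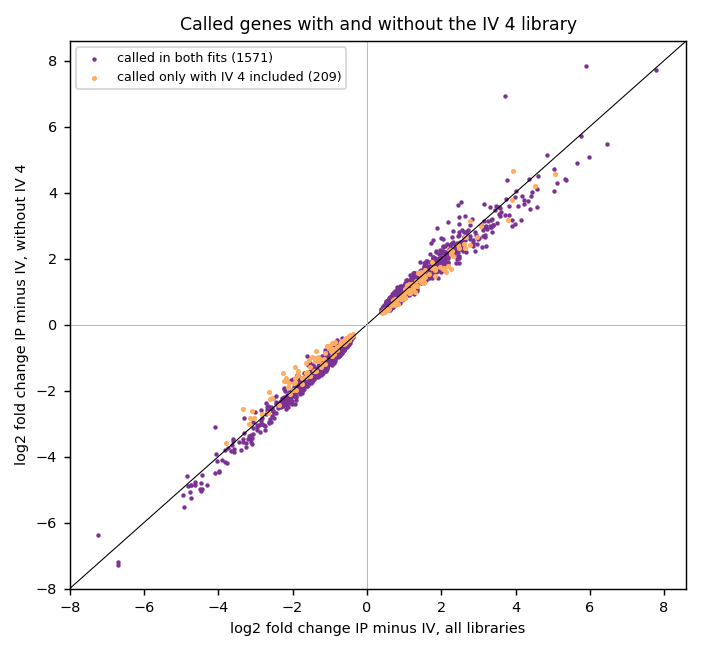
Log2 fold changes (IP minus IV) of the 1780 called genes with all libraries (horizontal) and without IV 4 (vertical); purple points (1571) were called in both fits and orange points (209) only with IV 4 included, and the line marks equal values. No point changes sign between the fits.

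Genes for interferon-gamma, granzyme B and perforin, products of effector T cells and NK cells, were higher after IP delivery. Ifng (ENSMUSG00000055170.5), which encodes interferon-gamma, had 826, 748 and 571 CPM in the IP libraries and 11.3, 16.3 and 12.4 CPM in the IV libraries, with 0.0819, 1.07 and 1.32 CPM in PBS. Its lowest IP value was 35.1 times its highest IV value (log2 fold change 5.76 ± 0.61 (SE; edgeR adjusted p = 0.000824)), the widest gap among called genes with a mean of at least 5 CPM. In bulk tissue, fewer cells of a type and less RNA per cell cannot be told apart. Gzmb, the serine protease granzyme B of cytotoxic granules, had 590.3, 583 and 523 CPM in IP and 26.9, 42.8 and 35.6 CPM in IV (log2 fold change 4.01 ± 0.47 (SE; edgeR adjusted p = 0.000861)). Prf1, the pore-forming protein perforin, had 96.2, 101 and 81.9 CPM in IP and 11.2, 24.4 and 27.1 CPM in IV (log2 fold change 2.16 ± 0.43 (SE; edgeR adjusted p = 0.0118)). Both were high in all 3 IP libraries, and IV 1 was the lowest of the IV libraries for each.

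Of the 23 tested genes of the cytotoxic and type 1 effector list, 8 were called higher in IP and 0 higher in IV. Separation with IP above was found for 12 and with IP below for 0, and the median log2 fold change was 0.64. Over all tested genes, 5.93% were called higher in IP and 4.47% higher in IV. Separation was found for 17.9% with IP above and 13.5% with IP below, shares beside which every list below is to be read. The 8 calls of this list became 4 without IP 2 or without IP 3, 5 without IV 1 and 3 without IP 4 and IV 1 together. Without IV 1, Gzmk (-1.91) and Eomes (-1.49) were called higher in IV. Besides the genes above, the called members were the chemokine genes Ccl5 (1.15) and Xcl1 (2.29) and the granzyme genes Gzmc, Gzmd and Gzmf, the last 2 under 2 CPM in every library. Xcl1 was no longer called without IP 2 (edgeR adjusted p = 0.118), IP 3 (0.103), IP 4 (0.0763), IV 1 (0.114), IV 2 (0.0533), IV 4 (0.109), PBS 2 (0.0576) and PBS 3 (0.0546), and Gzmc without IP 2 (edgeR adjusted p = 0.0799), IP 3 (0.0783) and IV 1 (0.0602). The call of Gzmd was lost without IP 2 (edgeR adjusted p = 0.0554) and IP 3 (0.0506), and that of Gzmf without IP 2 (edgeR adjusted p = 0.082), IP 3 (0.0721) and IV 1 (0.0593).

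T cell genes themselves did not follow that pattern. Of the 22 tested T cell genes, 0 were called higher in IP and 2 higher in IV, with a median of 0.16. Over all tested genes these shares were 5.93% and 4.47%. Thy1 (1.20), called higher in IP, was not in this list and is given with the fibroblast and matrix genes. Cd3e, the epsilon chain of the T cell receptor complex, had 24.5, 21.5 and 23.7 CPM in IP and 10, 24 and 24.9 CPM in IV (log2 fold change 0.25 ± 0.38 (SE; edgeR adjusted p = 0.74)). The groups overlapped, IV 2 and IV 4 lying at the level of the IP libraries and IV 1 below it, and the difference changed sign without IV 1. Cd8a, the co-receptor chain of cytotoxic T cells such as OT-I cells, had 58.5, 53.8 and 52.8 CPM in IP and 8.55, 24.9 and 31.8 CPM in IV, separated but not called (log2 fold change 1.34 ± 0.54 (SE; edgeR adjusted p = 0.153)). Cd4, the co-receptor of helper T cells, was higher in IV, with 5.14, 3.68 and 4.55 CPM in IP and 7.09, 22.4 and 25.9 CPM in IV (log2 fold change -2.04 ± 0.42 (SE; edgeR adjusted p = 0.0121)). The call of Cd4 was lost without IP 2 (edgeR adjusted p = 0.0506) and IP 3 (0.0628). Tcf7, a transcription factor of naive and memory T cells, had 27, 30.1 and 23.8 and 43.9, 62.4 and 47.9 CPM (log2 fold change -0.92 ± 0.19 (SE; edgeR adjusted p = 0.0129)). The call of Tcf7 was lost without IP 2 (edgeR adjusted p = 0.0667) and IP 4 (0.0602). The count of 2 was 0 without IP 2 and 1 without IP 3 or without IP 4, and 1 was called higher in IP without IV 4.

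Checkpoint and costimulatory genes were higher after IP delivery for 9 of the 20 tested (0 higher in IV; 16 separated with IP above and 0 below; median 1.16). Between 6 and 10 were called higher in IP when any 1 library was left out, and 5 without IP 4 and IV 1 together. Without IV 1, Btla (-1.67) and Icosl (-0.77) were called higher in IV. Tnfrsf9, the costimulatory receptor 4-1BB of activated T cells, had 117, 103 and 90.3 CPM in IP and 10.9, 13.1 and 11.2 CPM in IV (log2 fold change 3.16 ± 0.37 (SE; edgeR adjusted p = 0.000824)). Tnfsf4, the OX40 ligand, had 8.83, 7.62 and 5.49 and 0.546, 0.80 and 0.571 CPM (log2 fold change 3.59 ± 0.31 (SE; edgeR adjusted p = 0.000223)). Pdcd1lg2, the PD-1 ligand PD-L2, had 34.2, 36.1 and 36.7 and 3.89, 6.27 and 6.12 CPM (log2 fold change 2.73 ± 0.37 (SE; edgeR adjusted p = 0.00171)). For these 3 genes every IP library exceeded every IV library by more than 5-fold. Cd274, the other PD-1 ligand (PD-L1), was already high in IV, with 562, 541 and 462 CPM in IP, 207, 149 and 243 CPM in IV and 16.5, 24.1 and 56.6 CPM in PBS (log2 fold change 1.38 ± 0.38 (SE; edgeR adjusted p = 0.042)). That call was lost without IP 2 (edgeR adjusted p = 0.137), IP 3 (0.121), IP 4 (0.0806), IV 1 (0.089), IV 2 (0.144), IV 4 (0.0772) and PBS 2 (0.071).

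Chemokine targets of interferon-gamma were above PBS by both routes. Of 30 tested genes of the interferon-gamma response, 5 were called higher in IP (against 5.93% of all tested genes) and 0 higher in IV, while 18 were separated with IP above and 1 with IP below (median 0.52). The 5 became 0 without IP 2 or IP 3, 1 without IV 2 or IV 4, 2 without IP 4, 3 without IV 1 or PBS 2, 8 without PBS 3 and 9 without PBS 1, and 0 without IP 4 and IV 1 together. Cxcl9, a chemokine for activated T cells, had 2865, 2929 and 2464 CPM in IP and 697, 889 and 560.0 CPM in IV, with 9.28, 83.9 and 189 CPM in PBS. Its groups were separated but not called (log2 fold change 1.94 ± 0.83 (SE; edgeR adjusted p = 0.192)). It was called without PBS 1 (edgeR adjusted p = 0.0031). Cxcl10, a chemokine for the same receptor, had 3184, 3130.1 and 2698 CPM in IP and 1511, 1344 and 969 CPM in IV (log2 fold change 1.24 ± 0.30 (SE; edgeR adjusted p = 0.0243)). The call of Cxcl10 was lost without IP 2 (edgeR adjusted p = 0.0937), IP 3 (0.0838), IP 4 (0.0542), IV 2 (0.0709) and IV 4 (0.0555). Ido1, the tryptophan-degrading enzyme, had 12.2, 14 and 10.5 and 3.82, 3.47 and 2.69 CPM (log2 fold change 1.89 ± 0.40 (SE; edgeR adjusted p = 0.015)). The call of Ido1 was lost without IP 2 (edgeR adjusted p = 0.0677) and IP 3 (0.0721). Cxcl11, the third chemokine for that receptor, had 117, 115 and 95 and 20.9, 19.9 and 8.29 CPM (log2 fold change 2.76 ± 0.59 (SE; edgeR adjusted p = 0.0208)). The call of Cxcl11 was lost without IP 2 (edgeR adjusted p = 0.0748), IP 3 (0.0665), IV 1 (0.050), IV 2 (0.057) and IV 4 (0.058). In all 4 genes the IP libraries were highest and every IV library stood above every PBS library.

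Class I antigen presentation, a second interferon-driven group, gave 0 calls by edgeR among 19 tested genes, with 14 separated with IP above and 0 below (median 0.35). Of all tested genes, 17.9% were separated with IP above and 13.5% with IP below. H2-T22 had 619, 579.7 and 555 CPM in IP and 336, 376 and 408 CPM in IV (log2 fold change 0.65 ± 0.24 (SE; edgeR adjusted p = 0.111)). It was called without PBS 1 (edgeR adjusted p = 0.0163). H2-D1, a classical class I heavy chain, had 3920.0, 3468 and 3496 and 2152, 2413 and 2665 CPM (log2 fold change 0.59 ± 0.25 (SE; edgeR adjusted p = 0.163)). H2-D1 was called without PBS 1 (edgeR adjusted p = 0.0266). In all, 2 members were called without PBS 1. At an unadjusted p under 0.05 edgeR gave 2 members, and DESeq2's Wald test and limma on the deposited log2 CPM also called 0. The summed CPM of the list were 21688, 20351 and 20075 in IP and 16150, 16159 and 16343 in IV, without overlap. The 0 calls do not show equal levels. In the simulated data used to test the scripts, 200 genes of 17123 were changed and 4.48% of 1.5-fold differences were called. Far fewer genes were called there than in the data, and this list was not simulated, so that share does not give the power here.

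Genes of the type I interferon response showed more calls: 10 of 25 tested were called higher in IP and 0 higher in IV, and 22 were separated with IP above and 0 below (median 0.82). The count was 5 without IP 2, IP 3 or IV 2, 16 without PBS 1, and 6 without IP 4 and IV 1 together. Ifit2, an antiviral RNA-binding protein, had 1129.7, 1210.3 and 899 CPM in IP and 246, 216 and 429 CPM in IV (log2 fold change 1.86 ± 0.28 (SE; edgeR adjusted p = 0.00299)). Mx2, an interferon-induced GTPase, had 89.2, 90.5 and 69.7 and 26.9, 24.8 and 23.9 CPM (log2 fold change 1.72 ± 0.23 (SE; edgeR adjusted p = 0.00155)). Usp18, which removes ISG15 from proteins and dampens interferon receptor signalling, had 410.4, 457 and 327 and 174, 151 and 153 CPM (log2 fold change 1.32 ± 0.20 (SE; edgeR adjusted p = 0.00283)). The 3 IV libraries were near each other for Mx2 and Usp18, and IV 4 was the highest of them for Ifit2.

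The promoters of called interferon genes are shown because the group moved together and the interferon-stimulated response element (ISRE) is the known binding element of its transcription factors. Of the 10 called genes, 8 were in the promoter table (RefSeq, GRCm38.p6), and 5 of these (Oas3, Rsad2, Ifit1, Isg15 and Ifit3b) held GAAA, any 2 bases and GAAA on either strand within 250 bases before the start, against 3.04% of all 27025 promoters. The motif is in capitals in the following sequences of Oas3 (chr5:120777660-120777909, minus strand), where it lies 75 to 66 bases before the start, and Rsad2 (chr12:26456453-26456702, minus strand), where it lies 120 to 111 bases before the start on the other strand.
Oas3: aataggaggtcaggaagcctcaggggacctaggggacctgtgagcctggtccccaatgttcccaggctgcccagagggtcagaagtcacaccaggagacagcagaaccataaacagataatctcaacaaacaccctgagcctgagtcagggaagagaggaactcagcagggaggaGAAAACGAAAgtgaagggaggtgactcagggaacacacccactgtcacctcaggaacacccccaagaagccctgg
Rsad2: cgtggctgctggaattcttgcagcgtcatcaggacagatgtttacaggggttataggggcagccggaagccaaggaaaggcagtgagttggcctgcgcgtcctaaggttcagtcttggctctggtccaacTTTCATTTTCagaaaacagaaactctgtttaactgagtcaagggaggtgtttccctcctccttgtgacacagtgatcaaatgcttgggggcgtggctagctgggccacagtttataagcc
Oas3, which makes the activator of RNase L, had 347, 368 and 288 CPM in IP and 93.6, 86.7 and 117 CPM in IV (log2 fold change 1.75 ± 0.39 (SE; edgeR adjusted p = 0.0185)). The call of Oas3 was lost without IP 2 (edgeR adjusted p = 0.070), IP 3 (0.0703), IV 1 (0.0608), IV 2 (0.0785) and IV 4 (0.0636). Rsad2, the antiviral enzyme viperin, had 612, 641 and 462 and 217, 170.5 and 213 CPM (log2 fold change 1.51 ± 0.26 (SE; edgeR adjusted p = 0.00499)). In both genes the lowest IP library was more than 2-fold above the highest IV library. A match of these letters is a description and shows no binding. The list was made of interferon genes, and its uncalled members were not counted apart. The share thus says nothing about the difference between the routes.

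Chemokines that attract neutrophils and monocytes were the list with the highest median. Of 13 tested, 10 were called higher in IP and 0 higher in IV and 11 were separated with IP above and 0 below. The median log2 fold change was 2.98. The count stayed between 7 and 11 when any 1 library was left out and was 10 without IP 4 and IV 1 together. Ccl3, an inflammatory chemokine of macrophages and T cells, had 66.9, 62.2 and 55 CPM in IP and 2.91, 2.93 and 3.13 CPM in IV, with 0.573, 0.921 and 3.35 CPM in PBS (log2 fold change 4.35 ± 0.50 (SE; edgeR adjusted p = 0.000824)). All 3 IV values lay within the range of the PBS values. Ccl4, a close relative of Ccl3, had 50.7, 47.9 and 36.8 and 3.67, 4.8 and 4.18 CPM (log2 fold change 3.44 ± 0.44 (SE; edgeR adjusted p = 0.0013)). Ccl2, the main ligand of the monocyte receptor CCR2, had 320.0, 271 and 236 and 39.9, 29.5 and 28.4 CPM (log2 fold change 3.08 ± 0.35 (SE; edgeR adjusted p = 0.000824)). In these genes the IV libraries were close to one another and far from the IP libraries.

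The ligands of CXCR2, the neutrophil chemokine receptor, showed a wide spread within IV. Cxcl5 had 51.5, 24.3 and 33.4 CPM in IP and 4.11, 0.267 and 0.479 CPM in IV (log2 fold change 4.35 ± 0.79 (SE; edgeR adjusted p = 0.00989)). Cxcl2 had 42.9, 27.9 and 18.2 and 5.17, 0.40 and 0.297 CPM (log2 fold change 3.80 ± 0.97 (SE; edgeR adjusted p = 0.0441)). The call of Cxcl2 was lost without IP 2 (edgeR adjusted p = 0.135), IP 3 (0.114), IP 4 (0.0647), IV 2 (0.109), IV 4 (0.0596), PBS 1 (0.0852), PBS 2 (0.0717) and PBS 3 (0.0616). Cxcl1 had 14.2, 9.99 and 7.72 and 2.66, 0.267 and 0.753 CPM (log2 fold change 2.98 ± 0.60 (SE; edgeR adjusted p = 0.0115)). The call of Cxcl1 was lost without IP 2 (edgeR adjusted p = 0.0572). In each of the 3 genes IV 1 was the highest IV library and still below the lowest IP library, and IP 2 was the highest IP library. The receptor gene itself, Cxcr2, had 14.2, 11 and 13.3 CPM in IP and 0.873, 1.07 and 0.365 CPM in IV (log2 fold change 4.22 ± 0.45 (SE; edgeR adjusted p = 0.000625)), a gap of 10.3 times.

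Promoters of CXCR2 ligands are shown because these neighbouring genes moved together and their promoters hold the kappaB element, to which NF-kappaB proteins bind. Of the 10 called chemokine genes, 6 were in the promoter table, under the share needed for a check of the group, so that no share of the group is read. Cxcl3, Cxcl2 and Cxcl1 held the kappaB motif on either strand within 250 bases before the start, as did 7.01% of all 27025 promoters. Capitals mark it in Cxcl3 (chr5:90785851-90786100, plus strand), 73 to 63 bases before the start and made of 2 overlapping matches, and in Cxcl2 (chr5:90903649-90903898, plus strand), 97 to 87 bases before the start.
Cxcl3: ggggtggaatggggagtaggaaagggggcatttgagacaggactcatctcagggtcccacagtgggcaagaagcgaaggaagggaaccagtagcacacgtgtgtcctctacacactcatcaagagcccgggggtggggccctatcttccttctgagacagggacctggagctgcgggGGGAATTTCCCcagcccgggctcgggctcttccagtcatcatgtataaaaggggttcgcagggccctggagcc
Cxcl2: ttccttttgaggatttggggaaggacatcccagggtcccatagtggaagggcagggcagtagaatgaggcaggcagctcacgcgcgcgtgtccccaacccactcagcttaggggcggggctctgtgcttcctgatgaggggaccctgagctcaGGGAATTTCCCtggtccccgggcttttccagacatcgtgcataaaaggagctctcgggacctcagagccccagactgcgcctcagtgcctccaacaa
Cxcl3 had 15, 8.0 and 5.33 CPM in IP and 0.691, 0 and 0.0228 CPM in IV (log2 fold change 5.11 ± 0.88 (SE; edgeR adjusted p = 0.00526)), so that IV 2 and IV 4 were at or near 0 and IV 1 was the highest IV library, as for Cxcl2.

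Among the 18 other chemokines tested, 10 were called higher in IP and 1 higher in IV (median 1.20), with 6 higher in IP without IP 2, 5 without IP 4 and IV 1 together and 2 higher in IV without IV 4. Ccl17, a ligand of CCR4, had 4.25, 3.77 and 4.15 CPM in IP and 0.364, 0.80 and 0.274 CPM in IV (log2 fold change 3.32 ± 0.39 (SE; edgeR adjusted p = 0.000915)). Ccl24, an eosinophil chemokine that acts on CCR3, had 47.4, 50.9 and 55.5 and 10.1, 8.14 and 3.47 CPM (log2 fold change 2.85 ± 0.34 (SE; edgeR adjusted p = 0.000915)). Ccl22, also a ligand of CCR4, had 35.4, 26.6 and 24.7 and 4.55, 8.8 and 7.17 CPM (log2 fold change 2.11 ± 0.35 (SE; edgeR adjusted p = 0.00426)). Cxcl14, a chemokine of epithelial and stromal cells, had 16.4, 16.3 and 22.4 and 4.66, 2.53 and 2.37 CPM (log2 fold change 2.50 ± 0.32 (SE; edgeR adjusted p = 0.00123)). In all 4 the lowest IP value was more than 2 times the highest IV value. The single gene higher in IV was Cxcl13, the B cell chemokine, with 105, 82.5 and 71.4 CPM in IP and 329, 246 and 164 CPM in IV (log2 fold change -1.51 ± 0.23 (SE; edgeR adjusted p = 0.00317)).

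**Figure D3:**
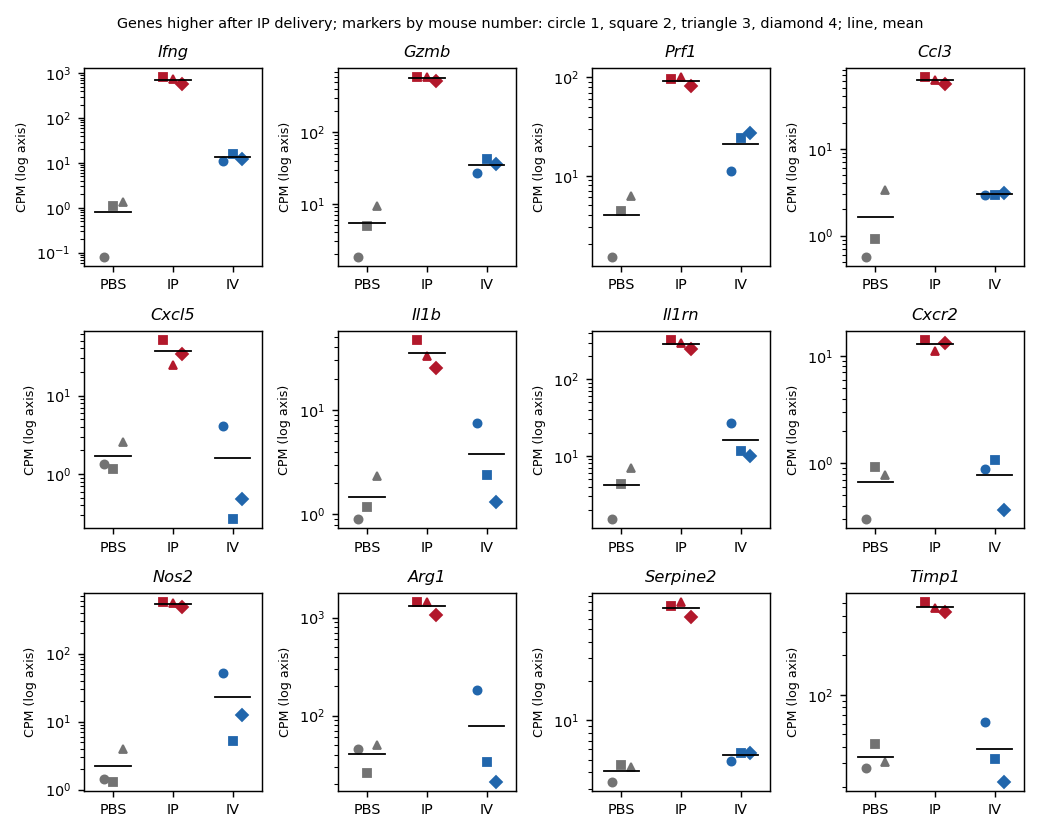
Levels of 12 genes higher after IP delivery in every library, in CPM on log axes that differ between panels; points are mice (PBS grey, IP red, IV blue), marker shapes give the mouse number and lines the group means. Every IP point lies above every IV point, IV 1 (blue circle) is the highest IV point for Cxcl5, Il1b, Il1rn, Nos2, Arg1 and Timp1, and the 3 IV points for Ccl3 fall within the PBS range.

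Inflammatory cytokines were called mostly higher in IP. Of 18 tested inflammatory cytokines, 9 were called higher in IP and 1, Il18, higher in IV (median 1.55), and 6 to 11 were called higher in IP when any 1 library was left out. The call of Il18 (-0.49) was lost without IP 2 (edgeR adjusted p = 0.118), IP 3 (0.101), IP 4 (0.0968), IV 1 (0.068) and IV 2 (0.0616). Il1rn, the interleukin-1 receptor antagonist, had 328, 298 and 245 CPM in IP and 26.7, 11.5 and 9.88 CPM in IV (log2 fold change 4.16 ± 0.56 (SE; edgeR adjusted p = 0.00256)). Il1f9, the interleukin-36 gamma gene, had 10.5, 13.3 and 12.7 and 1.24, 0.40 and 0.228 CPM (log2 fold change 4.24 ± 0.50 (SE; edgeR adjusted p = 0.000883)). Il1b, interleukin-1 beta, had 47.2, 32.7 and 25.5 and 7.53, 2.4 and 1.32 CPM (log2 fold change 3.19 ± 0.59 (SE; edgeR adjusted p = 0.00819)). IV 1 was the highest IV library in all 3 genes, and no IV value reached the IP range. Il6 had 9.35, 7.75 and 6.24 CPM in IP and 0.764, 0.80 and 0.251 CPM in IV (log2 fold change 3.83 ± 0.58 (SE; edgeR adjusted p = 0.00295)). Lif and Osm, cytokines that share the gp130 receptor subunit with interleukin-6, had fold changes of 2.64 ± 0.31 and 2.37 ± 0.30 on the log2 scale. The alarmin gene Il33 had 89.2, 88.1 and 66.4 and 23.1, 31.4 and 31.5 CPM (log2 fold change 1.51 ± 0.22 (SE; edgeR adjusted p = 0.00243)). Inhba, the activin A subunit, had 41.9, 30.9 and 19.4 and 1.6, 2.93 and 0.616 CPM (log2 fold change 4.40 ± 0.69 (SE; edgeR adjusted p = 0.00377)).

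Among inhibitors induced by cytokine signalling, the called members were all higher in IP. Of 14 tested genes of JAK-STAT feedback, 7 were called higher in IP and 0 higher in IV (12 separated with IP above, 0 below; median 1.00), with 11 without IV 4. Socs3, an inhibitor of gp130 and STAT3 signalling, had 199.8, 183 and 182 CPM in IP and 59.6, 53.6 and 44.9 CPM in IV (log2 fold change 1.84 ± 0.17 (SE; edgeR adjusted p = 0.00031)). Cish, a STAT5 target that restrains cytokine receptors, had 19.6, 15.5 and 18.6 and 5.24, 6.27 and 5.62 CPM (log2 fold change 1.66 ± 0.19 (SE; edgeR adjusted p = 0.000809)). Both groups were tight for these 2 genes. Of 18 tested genes of TNF and NF-kappaB feedback, 7 were called higher in IP and 0 higher in IV (13 separated with IP above, 0 below; median 0.59), with 5 to 8 when any 1 library was left out. Tnfaip3, the ubiquitin-editing inhibitor A20, had 65.5, 50 and 50.7 and 13.2, 17.1 and 20.8 CPM (log2 fold change 1.70 ± 0.28 (SE; edgeR adjusted p = 0.00457)). Ier3, an NF-kappaB target that limits cell death, had 84, 74.3 and 55.9 and 25, 17.3 and 19.9 CPM (log2 fold change 1.77 ± 0.22 (SE; edgeR adjusted p = 0.00109)).

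Enzymes of nitric oxide, arginine and itaconate metabolism, which mark activated macrophages, included 8 called higher in IP of 10 tested and 0 higher in IV (median 1.87). The count was 2 without IP 2, 4 without IP 3 and 7 without IP 4 and IV 1 together. Nos2, the inducible nitric oxide synthase, had 570.4, 564 and 478 CPM in IP and 51.7, 5.2 and 12.5 CPM in IV (log2 fold change 4.51 ± 0.86 (SE; edgeR adjusted p = 0.0156)). The call of Nos2 was lost without IP 2 (edgeR adjusted p = 0.0558), IP 3 (0.0509) and IV 4 (0.0527). Arg1, arginase 1, which competes with Nos2 for arginine, had 1438, 1433 and 1072 and 181, 33.8 and 21.1 CPM (log2 fold change 4.06 ± 0.80 (SE; edgeR adjusted p = 0.016)). The call of Arg1 was lost without IP 2 (edgeR adjusted p = 0.0587) and IP 3 (0.0541). The arginine transporter gene Slc7a2 had 199, 184 and 149 and 42.2, 9.74 and 16 CPM (log2 fold change 2.94 ± 0.51 (SE; edgeR adjusted p = 0.00753)). In these 3 genes IV 1 was more than 2-fold above IV 2 and IV 4 while the IP libraries were close together. Ass1, which regenerates arginine from citrulline, had 109, 119 and 116 and 66.3, 60.8 and 49.2 CPM (log2 fold change 0.97 ± 0.13 (SE; edgeR adjusted p = 0.00171)), a smaller difference with less spread. Arg2, the mitochondrial arginase, was lower throughout at 3.72, 2.2 and 2.26 and 0.691, 0.133 and 0.137 CPM (log2 fold change 2.97 ± 0.57 (SE; edgeR adjusted p = 0.00897)). The call of Arg2 was lost without IP 2 (edgeR adjusted p = 0.0508).

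Genes of alternative macrophage activation, usually attached to interleukin-4, were higher in IP for 8 of 14 tested (0 higher in IV; median 1.72), and 7 to 9 were called higher in IP when any 1 library was left out, with 1 higher in IV without PBS 3. Tgm2, transglutaminase 2, had 938, 823 and 885 CPM in IP and 239, 174 and 165 CPM in IV (log2 fold change 2.20 ± 0.26 (SE; edgeR adjusted p = 0.000915)). The list shares Arg1, Ccl17, Ccl22, Ccl24, Pdcd1lg2 and Socs2 with those above, so that its count is not separate from theirs. Of 14 prostaglandin and eicosanoid genes, 5 were called higher in IP and 1 higher in IV (median 0.72), the former being 2 without IP 2, IP 3, IP 4 or IV 2. The latter, Ltc4s (-1.10), was called in fits that left out PBS 2 or IV 4 but in none that left out any other single library. Ptgs2, the inducible cyclooxygenase 2, had 71, 62.2 and 40 CPM in IP and 6.44, 2.13 and 5.96 CPM in IV (log2 fold change 3.49 ± 0.44 (SE; edgeR adjusted p = 0.00118)). Ptges, the prostaglandin E synthase coupled to it, had 66.5, 55.4 and 45.9 and 27.6, 16 and 14.2 CPM (log2 fold change 1.53 ± 0.26 (SE; edgeR adjusted p = 0.00488)). Neither gene had an IV value within the IP range.

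Markers of myeloid cells gave mixed results. Of 19 tested neutrophil genes, 6 were called higher in IP and 0 higher in IV, and 8 were separated with IP above and 0 below (median 1.06). Between 4 and 7 were called higher in IP when any 1 library was left out. Without IP 2 the granule genes Mpo (-10.18) and Elane (-5.36) were called higher in IV. With all libraries the lowest log2 fold change of the list was -2.78, so the size of these 2 folds depended on leaving out IP 2. The 6 were Cxcr2, Hdc, Lcn2, Mmp9, Trem1 and Clec4d, of which activated macrophages or stromal cells are known to express several. Lcn2, the iron-siderophore binding protein lipocalin 2, had 164, 179 and 271 CPM in IP and 34.5, 17.1 and 8.72 CPM in IV (log2 fold change 3.35 ± 0.52 (SE; edgeR adjusted p = 0.00465)). S100a8, an abundant calcium-binding protein of neutrophils, had 42, 34.5 and 21.6 CPM in IP and 31.5, 57 and 3.61 CPM in IV (log2 fold change 0.13 ± 0.80 (SE; edgeR adjusted p = 0.946)), the groups overlapping with IV 2 the highest of the 6 libraries and IV 4 the lowest. Ly6g, also a defining marker, was under 1 CPM in all 6 libraries. The summed CPM of the list were 662, 595.5 and 666 in IP, 299, 328 and 87.0 in IV and 48.1 to 85.3 in PBS. Their part in the calls of other myeloid genes was not tested.

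Of 12 tested monocyte genes, 3 were called higher in IP and 0 higher in IV (median 0.78), with 5 without PBS 1. Thbs1, the matrix protein thrombospondin 1, had 327, 289.8 and 196 CPM in IP and 69.4, 35.9 and 36.5 CPM in IV (log2 fold change 2.51 ± 0.28 (SE; edgeR adjusted p = 0.000762)). Vcan, the proteoglycan versican, had 68, 78.5 and 65.5 and 24.7, 18.9 and 25.4 CPM (log2 fold change 1.61 ± 0.18 (SE; edgeR adjusted p = 0.000762)). The third called gene was F10 (2.07 ± 0.51), whose call was lost without IP 2, IP 3, IP 4, IV 2, IV 4 and PBS 3. The monocyte gene Ly6c2 was not called with all libraries and was called higher in IP without PBS 1 (0.73). Of 17 macrophage genes, 2 were called higher in IP and 2 higher in IV (median -0.30), beside 5.93% and 4.47% of all tested genes. Cd14, the endotoxin co-receptor, had 156, 132 and 107 and 32.6, 13.2 and 8.58 CPM (log2 fold change 2.85 ± 0.42 (SE; edgeR adjusted p = 0.00259)), whereas Lyve1, a marker of resident perivascular macrophages and lymphatic endothelium, had 8.3, 8.55 and 12.8 and 33.8, 48.6 and 39.6 CPM (log2 fold change -2.03 ± 0.38 (SE; edgeR adjusted p = 0.00778)). The pan-macrophage gene Adgre1 had 57.1, 57.2 and 63.6 and 52.9, 62.6 and 92.4 CPM, with overlap (log2 fold change -0.23 ± 0.35 (SE; edgeR adjusted p = 0.738)). The 2 calls higher in IV were 1 without IP 2 or IP 3. Clec4n, the fungal receptor dectin-2 of monocytes and macrophages, was among the genes with the tightest groups, at 129, 131 and 120.5 CPM in IP and 12.9, 11.6 and 8.26 CPM in IV (log2 fold change 3.55 ± 0.22 (SE; edgeR adjusted p = 6.97e-05)).

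Large peritoneal macrophages, which enter the omentum from the cavity, were represented by 16 tested genes, of which 4 were called higher in IP and 2 higher in IV (median 0.21). For comparison with this and the following lists, 5.93% of all tested genes were called higher in IP and 4.47% higher in IV. The 4 fell to 1 without IP 2, IP 3 or IV 2, and the 2 to 0 without IP 2, IP 3 or IP 4 and to 1 without PBS 1, IV 1 or IV 2. Serpinb2, an intracellular inhibitor of plasminogen activators, had 53.9, 46 and 33.4 CPM in IP and 13.9, 4.94 and 8.15 CPM in IV (log2 fold change 2.26 ± 0.37 (SE; edgeR adjusted p = 0.00433)). This was the largest log2 fold change of the list. The 2 called higher in IV were Icam2 and Fabp7, the latter at -0.94 to -0.67 over the settings tried. Gata6 was not called with all libraries and was called higher in IP without IV 1 (0.89). Of 17 dendritic cell genes, 2 were called higher in IP and 2 higher in IV (median 0.08), and 1 of 14 mast cell and eosinophil genes was called higher in IP, Tpsab1, a mast cell tryptase, with 2.4, 2.71 and 1.31 and 0.255, 0.267 and 0.137 CPM (log2 fold change 3.38 ± 0.66 (SE; edgeR adjusted p = 0.0098)). That call was lost without IP 2 (edgeR adjusted p = 0.0523) and IP 3 (0.0507). The mast cell and eosinophil count was 3 without IV 1 and 2 without IV 4, and 1 was called higher in IV without IP 4, IV 1 or IV 4. The dendritic cell calls higher in IP became 1 without any single IP library, PBS 1, IV 1 or IV 2, and those higher in IV were 0 without IP 2 or IP 3, 1 without IP 4 or IV 2 and 5 without IV 1. Among them Siglech, a marker of plasmacytoid dendritic cells, had 1.09, 1.02 and 1.55 CPM in IP and 2.73, 9.07 and 4.43 CPM in IV (log2 fold change -2.09 ± 0.45 (SE; edgeR adjusted p = 0.0156)). The call of Siglech was lost without IP 2 (edgeR adjusted p = 0.0808) and IP 3 (0.0741).

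Genes that control plasmin and coagulation held a large share of calls, 10 of 16 higher in IP and 1, Vwf, higher in IV (median 1.36), with 7 to 10 higher in IP when any 1 library was left out. Serpine2 (ENSMUSG00000026249.11), the protease inhibitor nexin-1, had 75.2, 80.4 and 61.4 CPM in IP and 4.91, 5.6 and 5.64 CPM in IV, with 3.39, 4.53 and 4.43 CPM in PBS (log2 fold change 3.75 ± 0.17 (SE; edgeR adjusted p = 7.75e-06)). It had the smallest adjusted p of the named genes, and the values within each group lay close together. Plaur, the urokinase receptor, had 114, 90 and 79.9 and 31.7, 22 and 14.7 CPM (log2 fold change 2.05 ± 0.25 (SE; edgeR adjusted p = 0.000968)). Vwf, the von Willebrand factor of endothelium, had a log2 fold change of -0.81. The call of Vwf was lost without IP 2 (edgeR adjusted p = 0.183), IP 3 (0.147), IV 1 (0.0531), IV 2 (0.154), PBS 1 (0.0635) and PBS 3 (0.0583).

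Matrix proteases and their inhibitors showed 8 of 15 called higher in IP and 1 higher in IV (median 1.39), with 6 to 10 higher in IP when any 1 library was left out and 5 without IP 4 and IV 1 together. The call higher in IV, Timp2 (-0.49), was lost without IP 2 (edgeR adjusted p = 0.0825), IP 3 (0.104), IP 4 (0.103) and IV 1 (0.0515). Timp1, an inhibitor of matrix metalloproteinases, had 507, 454 and 425 CPM in IP and 62.1, 32.3 and 21.7 CPM in IV (log2 fold change 3.57 ± 0.35 (SE; edgeR adjusted p = 0.000432)). Adam8, a membrane protease of leukocytes, had 187, 175 and 181 and 25.8, 14.1 and 16 CPM (log2 fold change 3.27 ± 0.22 (SE; edgeR adjusted p = 9.88e-05)). Mmp19 had 47.8, 40.7 and 46.5 and 14.9, 16.4 and 20.1 CPM (log2 fold change 1.39 ± 0.18 (SE; edgeR adjusted p = 0.0013)). In each the lowest IP value was more than 2 times the highest IV value, and the IP libraries lay within 1.5-fold of one another. Ptx3, a secreted pattern recognition molecule, led the acute phase list (4 of 16 called higher in IP, 0 higher in IV or 1 without IV 4; median 0.73) with 163, 125 and 156 CPM in IP and 7.57, 2.4 and 2.97 CPM in IV (log2 fold change 5.03 ± 0.47 (SE; edgeR adjusted p = 0.000366)). Saa1, serum amyloid A1, had 5.93, 9.91 and 5.76 and 1.35, 0.133 and 0.411 CPM (log2 fold change 3.34 ± 0.55 (SE; edgeR adjusted p = 0.00419)).

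Genes of hypoxia, glycolysis and cell stress were called in 1 direction only, higher in IP. Of 22 tested genes of hypoxia and glycolysis, 12 were called higher in IP and 0 higher in IV, 16 were separated with IP above, and the median was 0.85, with 9 to 15 called when any 1 library was left out. Egln3, an oxygen-sensing hydroxylase induced by HIF, had 102, 88 and 55.7 CPM in IP and 13.2, 3.6 and 6.53 CPM in IV (log2 fold change 3.34 ± 0.41 (SE; edgeR adjusted p = 0.00104)). Vegfa, the endothelial growth factor, had 101, 93.8 and 72.3 and 23.5, 20.4 and 30.5 CPM (log2 fold change 1.83 ± 0.19 (SE; edgeR adjusted p = 0.000482)). Ndrg1, another HIF target, had 204, 172 and 138 and 63.8, 53 and 69.7 CPM (log2 fold change 1.46 ± 0.16 (SE; edgeR adjusted p = 0.000642)). IP 2 was the highest library for all 3. Of 17 genes of the unfolded protein and integrated stress responses, 8 were called higher in IP and 0 higher in IV (median 0.55), with 5 without PBS 1, IP 2, IP 3 or IV 2. Trib3, a pseudokinase induced by ATF4 and CHOP, had 50.8, 48.4 and 48.9 and 17, 8.4 and 7.01 CPM (log2 fold change 2.18 ± 0.31 (SE; edgeR adjusted p = 0.00232)), and Ddit3, which encodes CHOP, had 154, 123 and 124 and 60.5, 52.6 and 47.6 CPM (log2 fold change 1.32 ± 0.23 (SE; edgeR adjusted p = 0.00538)). Hmox1, the haem-degrading enzyme haem oxygenase 1, had 836, 767 and 689 CPM in IP and 157, 61.6 and 83.6 CPM in IV (log2 fold change 2.92 ± 0.30 (SE; edgeR adjusted p = 0.000482)).

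Immediate early genes followed, with 11 of 19 called higher in IP and 1, Nr4a3, higher in IV (median 0.99), and 7 higher in IP without IP 2 or IP 3. Atf3, a stress-induced transcription factor, had 239, 213 and 167 CPM in IP and 44.9, 35.6 and 33 CPM in IV (log2 fold change 2.44 ± 0.29 (SE; edgeR adjusted p = 0.000964)). Jun had 220.1, 208 and 177 and 58.1, 66.8 and 63.7 CPM (log2 fold change 1.68 ± 0.19 (SE; edgeR adjusted p = 0.000762)), and Fosl2, its AP-1 partner, had 91.9, 84.9 and 80.3 and 29.5, 26.8 and 31.8 CPM (log2 fold change 1.54 ± 0.14 (SE; edgeR adjusted p = 0.00031)). The groups were tight and did not overlap. The call of Nr4a3 (-0.78) was lost without IP 2 (edgeR adjusted p = 0.116), IP 3 (0.0578), IP 4 (0.0704) and IV 1 (0.066), and 2 were called higher in IV without PBS 2.

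On the other side, most of the tested genes of fat synthesis were called higher after IV delivery. Of 16 tested lipogenesis genes, 10 were called higher in IV and 0 higher in IP, 11 were separated with IP below and 0 with IP above, and the median was -0.87. Between 7 and 11 were called when any 1 library was left out, and 7 without IP 4 and IV 1 together. Thrsp (ENSMUSG00000035686.9), a regulator of fatty acid synthesis in fat and liver, had 1.78, 2.88 and 2.33 CPM in IP, 86, 81.1 and 48.4 CPM in IV and 34.8, 18.8 and 47.9 CPM in PBS (log2 fold change -4.95 ± 0.39 (SE; edgeR adjusted p = 0.000135)). Its lowest IV value was 16.8 times its highest IP value. Pck1, which supplies glycerol for fat storage in adipocytes, had 0.0659, 1.1 and 0.977 CPM in IP and 15.9, 17.7 and 26.3 CPM in IV, with 16.5, 6.87 and 35.9 CPM in PBS (log2 fold change -4.84 ± 0.80 (SE; edgeR adjusted p = 0.00624)). Fasn, fatty acid synthase, had 103, 133 and 121 and 466, 371 and 497 CPM, with 581, 328 and 659.8 CPM in PBS (log2 fold change -1.90 ± 0.24 (SE; edgeR adjusted p = 0.0013)). For Pck1 and Fasn the IV values lay within the PBS range and the IP values below it. Dgat2, which completes triglyceride synthesis, had 5.4, 5.04 and 5.59 and 38.8, 31.8 and 35.5 CPM, with 27.9, 13.7 and 49.5 CPM in PBS (log2 fold change -2.73 ± 0.37 (SE; edgeR adjusted p = 0.00174)). Elovl6, a fatty acid elongase, had 14, 11.3 and 12.4 and 39, 39.4 and 41.4 CPM, with 80.8, 56.1 and 71.3 CPM in PBS (log2 fold change -1.67 ± 0.16 (SE; edgeR adjusted p = 0.00031)). The IV values of Dgat2 also lay within the PBS range, whereas those of Elovl6 were all below it. Of the 10 called genes, 8 were in the promoter table, and 0 of these held the E-box CACGTG, against 6.05% of all promoters. With so few promoters and so rare a motif, 0 matches do not show a lack of it.

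Markers of adipocytes were less clearly divided. Of 17 tested, 4 were called higher in IV and 0 higher in IP, and 9 were separated with IP below and 2 with IP above (median -0.98). Among all tested genes, 13.5% were separated with IP below and 17.9% with IP above. In the adipocyte list, 8 were called higher in IV without PBS 3 and 1 higher in IP without PBS 2. Car3, an abundant carbonic anhydrase of adipocytes, had 36.7, 54.2 and 69.4 CPM in IP and 244, 306 and 255 CPM in IV (log2 fold change -2.33 ± 0.33 (SE; edgeR adjusted p = 0.00199)). Adrb3, the beta-3 adrenergic receptor that starts fat breakdown, had 0.165, 0.847 and 0.404 and 5.68, 4.54 and 6.35 CPM (log2 fold change -3.59 ± 0.55 (SE; edgeR adjusted p = 0.00311)). Retn, the adipokine resistin, had 14, 16.9 and 18.5 and 56.3, 40 and 27.7 CPM (log2 fold change -1.33 ± 0.23 (SE; edgeR adjusted p = 0.00588)). Adipoq, adiponectin, was separated but not called (log2 fold change -1.01 ± 0.31 (SE; edgeR adjusted p = 0.067)). Adipoq was called without IP 4 (edgeR adjusted p = 0.0352) and PBS 3 (0.0333). The summed CPM of the adipocyte list were 998, 1201 and 1480.4 in IP, 2077.5, 2068 and 1633 in IV and 899.7 to 1673 in PBS, so that they moved with the lipogenesis genes between the routes, and their part in those calls was not tested. Igfbp5, a binding protein of insulin-like growth factors in stroma, had 13.5, 25.9 and 16 CPM in IP, 106, 182 and 174 CPM in IV and 37.3, 40.7 and 73.4 CPM in PBS (log2 fold change -3.06 ± 0.34 (SE; edgeR adjusted p = 0.000762)). Cyp2e1, a cytochrome of liver and fat and the 1 called gene of 5 tested liver genes, had 0.296, 0.55 and 0.91 and 6.26, 10.9 and 5.59 CPM (log2 fold change -3.66 ± 0.68 (SE; edgeR adjusted p = 0.00789)).

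**Figure D4:**
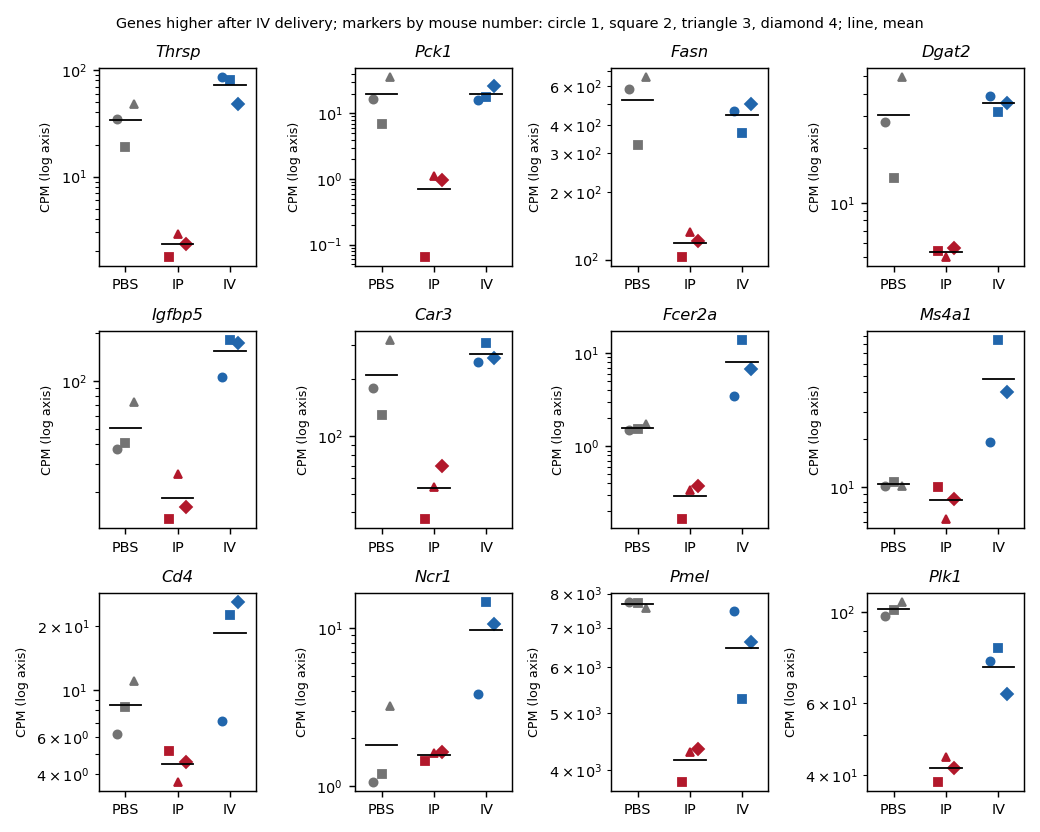
Levels of 12 genes higher after IV delivery in every library, in CPM on log axes that differ between panels; points are mice (PBS grey, IP red, IV blue), marker shapes give the mouse number and lines the group means. Every IV point lies above every IP point; IV 2 (blue square) is the highest IV point for the B cell genes Fcer2a and Ms4a1 and for Ncr1, and for Pmel and Plk1 every PBS point lies above every IV point.

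B cell genes were the list with the highest share of calls. Of 16 tested, 14 were called higher in IV and 0 higher in IP, 15 were separated with IP below and 0 with IP above, and the median was -2.19. The count was 8 without IP 3, 13 without IV 2 and 14 without IP 4 and IV 1 together. The summed CPM of the list were 118, 76.0 and 117 in IP and 227, 837 and 356 in IV, with 102 to 131 in PBS. IV 2, the shallowest library, thus had the highest level and IV 1 the lowest of the IV group, and the IP and PBS libraries were close. Ms4a1, the B cell surface protein CD20, had 10, 6.27 and 8.43 CPM in IP and 19.3, 85.5 and 40.1 CPM in IV (log2 fold change -2.53 ± 0.43 (SE; edgeR adjusted p = 0.00525)). Fcer2a, the low-affinity IgE receptor CD23 of mature B cells, had 0.165, 0.339 and 0.371 and 3.49, 14 and 6.69 CPM, with 1.5, 1.54 and 1.73 CPM in PBS (log2 fold change -4.74 ± 0.54 (SE; edgeR adjusted p = 0.000824)). Cr2, the complement receptor CD21 of B cells and follicular dendritic cells, had 0.757, 0.296 and 0.876 and 2.73, 10.5 and 6.62 CPM, with 1.78, 1.46 and 2.26 CPM in PBS (log2 fold change -3.30 ± 0.53 (SE; edgeR adjusted p = 0.00367)). Fcmr, an IgM receptor, had 4.05, 2.96 and 3.61 and 12.7, 45.9 and 18.9 CPM (log2 fold change -2.83 ± 0.42 (SE; edgeR adjusted p = 0.00259)). Fcrl1, another B cell receptor-like gene, had 2.5, 1.48 and 2.22 and 6.22, 28.9 and 8.77 CPM (log2 fold change -2.77 ± 0.53 (SE; edgeR adjusted p = 0.00889)). In all 5 genes IV 2 was the highest and IV 1 the lowest IV library, and IV 1 still lay above every IP library.

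Plasma cell genes did not share this direction, with 2 of 12 called higher in IP (4 without PBS 3 and 1 without any IP library, IV 1 or IV 2) and 0 higher in IV (1 without IV 1). Sdc1, the proteoglycan syndecan-1 of plasma cells and epithelia, had 45.9, 45.8 and 45.1 CPM in IP, 24.5, 21.2 and 15.7 CPM in IV and 31.3, 35.5 and 30.1 CPM in PBS (log2 fold change 1.16 ± 0.16 (SE; edgeR adjusted p = 0.00203)). Irf4, the second, had 20.5, 19.3 and 21.8 and 7.46, 10.7 and 12.6 CPM (log2 fold change 1.00 ± 0.27 (SE; edgeR adjusted p = 0.0394)). The call of Irf4 was lost without IP 2 (edgeR adjusted p = 0.126), IP 3 (0.10), IP 4 (0.109), IV 1 (0.107), IV 2 (0.0947) and PBS 1 (0.0523). Class II presentation, by which B cells, macrophages and dendritic cells show antigen to helper T cells, gave 3 of 11 called higher in IV, 0 higher in IP (median -0.55), and 1 higher in IV without IP 3, with 1 higher in IP without PBS 1 or PBS 3. The 3 were H2-Ob (-2.22 ± 0.41), H2-DMb2 (-1.77 ± 0.36) and H2-Oa (-1.65 ± 0.42), of which H2-Ob and H2-Oa encode the class II inhibitor DO of B cells. Without IP 3 (edgeR adjusted p = 0.0628), H2-DMb2 was no longer called. The call of H2-Oa was lost without IP 2 (edgeR adjusted p = 0.12), IP 3 (0.135), IP 4 (0.0681) and IV 2 (0.107). As in the B cell list, IV 2 was the highest library for these 3 genes.

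Markers of NK cells, which IL-12 also activates, were separated with IP below for 6 of 13 tested genes and with IP above for 1. Over all tested genes these shares were 13.5% and 17.9%. Of the 13, 1 was called higher in IV (median -1.09), against 4.47% of all tested genes. That count ranged from 0 without IP 2 or IP 3 to 3 without PBS 3, 5 without IV 1 and 6 without PBS 1, and was 6 by DESeq2's Wald test, while 1 was called higher in IP without PBS 3. Ncr1, the activating receptor NKp46, had 1.45, 1.61 and 1.65 CPM in IP and 3.82, 14.5 and 10.6 CPM in IV, with 1.07, 1.19 and 3.21 CPM in PBS (log2 fold change -2.59 ± 0.53 (SE; edgeR adjusted p = 0.0121)). Its call was lost without IP 2 (edgeR adjusted p = 0.0689) and IP 3 (0.0559). Klra7, a Ly49 receptor, had 3.85, 4.02 and 4.62 and 5.68, 19.1 and 11.5 CPM (log2 fold change -1.51 ± 0.44 (SE; edgeR adjusted p = 0.0542)). Klra7 was called without IV 1 (edgeR adjusted p = 0.016), PBS 1 (0.0332) and PBS 3 (0.0492). IV 2 was the highest library for both genes, and the IP libraries lay within the PBS range for Ncr1 and just above it for Klra7.

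Chemokine receptors went in both directions, with 4 of 21 higher in IP and 5 higher in IV (median -0.39). Without IP 2, IP 3, IP 4, IV 4 or PBS 3 the 4 became 2, and the 5 became 1 to 3 without IP 2, IP 3, IP 4, IV 2 or IV 4. Ccr1, a receptor of Ccl3 on myeloid cells, had 138, 128 and 116 CPM in IP and 32.4, 23.9 and 25.3 CPM in IV (log2 fold change 2.22 ± 0.19 (SE; edgeR adjusted p = 0.000223)). Cxcr3, the receptor of Cxcl9 and Cxcl10 on activated T and NK cells, had 3.49, 2.92 and 5.83 CPM in IP and 9.1, 14.9 and 20.9 CPM in IV (log2 fold change -1.87 ± 0.33 (SE; edgeR adjusted p = 0.00624)), with 8.82, 8.14 and 10.8 CPM in PBS. IP was therefore below PBS and IV near or above it for Cxcr3, while its ligands were highest in IP.

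Most of the tested genes of cholesterol synthesis and of proliferation were called lower in IP than in IV, and the members named here were lower in both than in PBS. Of 18 cholesterol synthesis genes, 12 were called higher in IV and 0 higher in IP (14 separated with IP below, 0 above; median -0.75), with 6 called without IP 2 or IP 3 and 5 without both IP 4 and IV 1. Insig1, the sterol-regulated brake on the pathway, had 21.5, 22 and 27.7 CPM in IP, 60.3, 59.1 and 73.5 CPM in IV and 165, 149 and 101 CPM in PBS (log2 fold change -1.44 ± 0.19 (SE; edgeR adjusted p = 0.00152)). The 3 groups were in the order IP lowest, then IV, and PBS highest. None of the 7 called members in the promoter table held the sterol element TCACNCCAC on either strand (1.04% of all promoters), and 7 of 12 is too few for a check of the group.

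Of 25 proliferation genes, 15 were called higher in IV and 0 higher in IP (16 separated with IP below, 0 above; median -0.68). The count depended on single libraries, being 5 without IP 2, 8 without IP 3, 7 without IP 4 and 2 without IP 4 and IV 1 together. Plk1, a mitotic kinase, had 38.5, 44.4 and 41.7 CPM in IP, 76.1, 81.5 and 63.2 CPM in IV and 97.6, 101 and 106 CPM in PBS (log2 fold change -0.82 ± 0.12 (SE; edgeR adjusted p = 0.00286)). Bub1b, a spindle checkpoint kinase, had 42.9, 52.8 and 50.9 and 75.3, 83.6 and 79.1 CPM, with 132, 127 and 129 CPM in PBS (log2 fold change -0.70 ± 0.11 (SE; edgeR adjusted p = 0.00398)). The differences were under 2-fold and the groups did not overlap.

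Melanocyte genes, which the tumour cells carry, were called higher in IV for 7 of 18 tested and higher in IP for 0 (13 separated with IP below, 0 above; median -0.54), with 2 without IP 2, 4 without IP 3 or IP 4 and 2 without IP 4 and IV 1 together. Tyr, tyrosinase, had 282, 320.0 and 292 CPM in IP, 567, 475 and 735 CPM in IV and 1181, 1008 and 931 CPM in PBS (log2 fold change -0.99 ± 0.17 (SE; edgeR adjusted p = 0.00578)). Oca2, a melanosome membrane protein, had 47.4, 54.5 and 47.7 and 107, 82 and 135 CPM, with 197, 166 and 163 CPM in PBS (log2 fold change -1.12 ± 0.17 (SE; edgeR adjusted p = 0.00333)). Pmel, the fibril protein of melanosomes, had 3820.4, 4298 and 4349.9 and 7462, 5283 and 6610.0 CPM, with 7736, 7727 and 7573 CPM in PBS (log2 fold change -0.63 ± 0.14 (SE; edgeR adjusted p = 0.0176)). The call of Pmel was lost without IP 2 (edgeR adjusted p = 0.115), IP 3 (0.0745), IP 4 (0.070) and IV 1 (0.0564). For Tyr and Oca2 the order was IP, IV, PBS from low to high with no overlap, whereas Pmel in IV 1 came close to PBS.

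Stromal lists held calls in both directions. Over all tested genes 5.93% were called higher in IP and 4.47% higher in IV. Counts of 1 in these lists lie near those shares and are not read as a result about the cells. Among 20 endothelial genes, 2 were called higher in IP and 2 higher in IV (median 0.18). Flt1, a receptor of VEGF-A, had 68, 68.3 and 61.2 CPM in IP and 17.4, 17.5 and 20.6 CPM in IV (log2 fold change 1.83 ± 0.14 (SE; edgeR adjusted p = 0.000117)). Cdh5, the endothelial cadherin, had 30.1, 40.2 and 33.1 and 11.2, 19.9 and 15.9 CPM (log2 fold change 1.16 ± 0.20 (SE; edgeR adjusted p = 0.00519)). The 2 higher in IV, Lyve1 and Vwf, were 1 without IP 2, IP 3, IV 1, IV 2, PBS 1 or PBS 3. Of 18 fibroblast and matrix genes, 3 were called higher in IP and 1 higher in IV (median 0.33). The 3 became 1 without IP 2 or IP 3, 5 without PBS 3, 6 without IV 4 and 0 without IP 4 and IV 1 together, and the 1 became 0 without IP 2. Fbn1, the microfibril protein fibrillin 1, had 110.2, 124 and 97.2 CPM in IP and 44.6, 45.6 and 64.6 CPM in IV (log2 fold change 1.09 ± 0.21 (SE; edgeR adjusted p = 0.00912)). Thy1, counted in this list and not among the T cell genes, had 176, 161 and 148 and 44.0, 81.8 and 86.4 CPM (log2 fold change 1.20 ± 0.26 (SE; edgeR adjusted p = 0.0164)). The call of Thy1 was lost without IP 2 (edgeR adjusted p = 0.0746) and IP 3 (0.0569). Of 16 mesothelial genes, 1 was called in each direction (median -0.19). Those higher in IP were 0 without IP 3, IP 4 or IV 2 and 2 without IV 1. Those higher in IV were 0 without IP 2 or IP 3, 2 without IP 4, 3 without PBS 2 and 4 without PBS 3 or IV 4, with Upk3b, Rspo1, Lrrn4 or Nkain4 among the calls gained. Msln, mesothelin, had 22.2, 24.3 and 34.8 and 18.3, 13.6 and 15.8 CPM (log2 fold change 0.76 ± 0.19 (SE; edgeR adjusted p = 0.0332)). The call of Msln was lost without IP 3 (edgeR adjusted p = 0.0714), IP 4 (0.12) and IV 2 (0.104). Muc16, a mucin of the mesothelial surface, had 0.329, 0.212 and 0.506 and 1.78, 2.4 and 2.19 CPM (log2 fold change -2.56 ± 0.52 (SE; edgeR adjusted p = 0.0119)). The call of Muc16 was lost without IP 2 (edgeR adjusted p = 0.0663) and IP 3 (0.0583). Complement genes gave 2 of 18 higher in IP, the receptors C3ar1 (1.62 ± 0.22) and C5ar1 (1.65 ± 0.28), and 0 higher in IV. Without PBS 3 the counts were 4 and 2, and 1 was called higher in IV without PBS 2 or IV 1.

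Lists of neighbouring organs bore on the acinar transcripts. Of 24 tested acinar genes 0 were called by edgeR, with summed CPM of 258, 316 and 23714 in IP and 32213, 5703 and 12 in IV. Cel, the bile salt lipase, had 2.11, 5.17 and 323 CPM in IP and 1004, 123 and 0.0228 CPM in IV (log2 fold change -1.77 ± 2.55 (SE; edgeR adjusted p = 0.729)), the groups overlapping over their whole range. Its sign, like that of Ctrc, changed without IV 1 and by limma voom. By edgeR, 0 of 5 stomach and gut, 0 of 9 muscle and 0 of 10 erythroid and platelet genes were called, with 0, 4 and 1 at an unadjusted p under 0.05 (0 of the acinar genes) and, by DESeq2's Wald test, 0, 3 and 0 called (0 acinar), and 1 of 8 spleen genes was called in each direction, Hmox1 and Cd5l, a macrophage protein with 31.3, 14.2 and 19.8 CPM in IP and 69.3, 68.7 and 60.2 CPM in IV (log2 fold change -1.60 ± 0.31 (SE; edgeR adjusted p = 0.00912)). Without IV 4, 2 spleen genes were called higher in IP, 2 liver genes and 1 muscle gene higher in IV, and 1 muscle gene also without IV 1 or PBS 2. A fit with the acinar level as a covariate gave 2276 called genes, among them 1758 of the 1780.

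**Figure D5:**
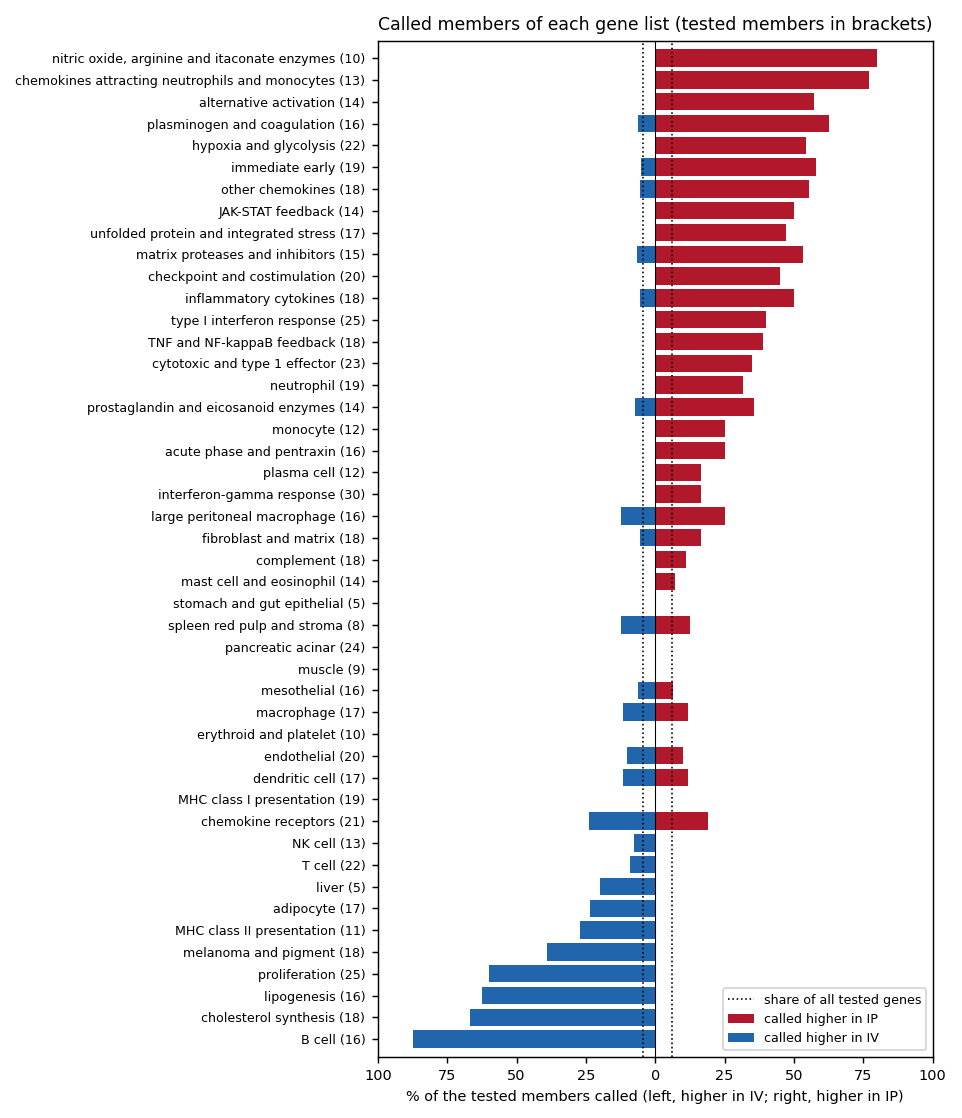
Share of the tested members of each of 46 gene lists called higher in IP (red, right) or higher in IV (blue, left), in percent, with the number of tested members in brackets; dotted lines mark the shares over all tested genes (5.93% and 4.47%). Lists of nitric oxide and arginine enzymes and of chemokines extend farthest to the right, and those of B cells, cholesterol synthesis and lipogenesis farthest to the left.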

How the data were processed

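RNA was extracted from omenta kept in RNAlater, and poly(A) libraries that mark strand were sequenced as read pairs of 51 bases each, per the labels' protocols. The deposited counts are whole numbers for 55359 genes in 9 libraries; STAR 2.7.9, featureCounts, limma and mm39 stand in the submitters' processing notes without roles. Which annotation release and strand setting were used was not given in the sources used here. Log2 CPM were also deposited by the authors, for 18833 genes, and recomputing them showed no scaling beyond the library total. Symbols came from GENCODE M21 (GRCm38; 52083 identifiers matched), and promoter sequences from RefSeq (GRCm38.p6), builds other than the submitters', so no gene coordinates are taken from the files.

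The test was that of edgeR 4.0.16 (R 4.3.3). After filterByExpr on the groups (17123 genes) and TMM scaling, a robust quasi-likelihood model was fitted to the 9 libraries with the group as its only term, and IP minus IV was tested two-sided with Benjamini-Hochberg adjustment over all genes at 0.05. Standard errors are the absolute log2 fold change over the square root of F. A gene is separated where the lowest scaled CPM of one group exceeds the highest of the other. Titles number the mice with gaps and descriptions number them 1 to 3 in each group; libraries are called by title. No replicate pair agreed within sampling noise (smallest chi-square per degree of freedom 7.67). Within a group each title names another mouse, so that p-values measure the spread between mice; whether equal numbers in different groups are related is not stated.

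The members, the 46 gene lists (807 entries) and the tests were chosen with earlier results of these data known. Genes named are, in each direction, the 10 largest folds and 10 widest gaps among called, separated genes with a mean of at least 5 CPM and a regular symbol, up to 3 members of each list by p, and 22 fixed genes; for promoters, the 2 called list members with the largest fold that hold the motif; others are given as chosen after their values were seen or as list members. Lists share members. A few genes of these are not reported here. Alternatives were DESeq2 1.42.0 (size factors, Wald test), limma 3.58.1 (voom, deposited log2 CPM), other filters, 6 libraries only, thinning, a replicate block, an acinar covariate and each library left out. Scripts were tested on simulated data. Near-identical families (H2, Klra, Ifit, Gzm, Saa, Ccl3 and Ccl4) and overlapping genes may share reads, so their values are uncertain.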

Additional observations from a re-analysis of the deposited data

Results flagged for a closer look

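Among the genes named, 5 were called in opposite directions against PBS by the 2 routes, in addition to their call between the routes, all by edgeR with the same PBS libraries as the baseline of both. Sdc1 was above PBS in IP and below it in IV, with an IP minus IV log2 fold change of 1.16. The other 4 were below PBS in IP and above it in IV: Igfbp5 (-3.06), Cr2 (-3.30), Fcer2a (-4.74) and Thrsp (-4.95). Over all tested genes 11 met the same condition, the others being Tnc (3.14), Ccn1 (2.38), Inhbb (2.19), Tfrc (1.61), Fam129b (1.20) and Cygb (-1.41), which are named here because of it. Tnc, the matrix protein tenascin C, had 32, 32.6 and 27.1 CPM in IP, 3.75, 4.27 and 2.67 CPM in IV and 11.1, 12.7 and 8.58 CPM in PBS, with no overlap between any 2 groups.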

How the results depend on the processing

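Of 160 named genes, 129 were called; all 129 kept their sign in every setting tried where they had a value, 87 kept their call in all of them, and 101 kept it without each IP or IV library. The count of 1780 called genes was 2765 by DESeq2's Wald test and 903 without IP 4 and IV 1 together, a setting chosen after seeing the data in which 9178 genes were separated. With 1 library left out, calls ranged from 673 to 2873 and separated genes from 6117 to 9625. Fewer values are easier to separate, and why the calls changed was not tested. Replicate number as a block, fitted over all 9 libraries including PBS, gave 1134 calls, of which 1000 were among the 1780. IP and IV themselves share only the numbers 2 and 4. The labels do not say that equal numbers mark a shared origin. Deviations of same-numbered libraries from their group means correlated at -0.14 (number 2) and -0.45 (number 4). Pairs with unlike numbers ranged from -0.28 (IP 3 with IV 1) to 0.35 (IP 4 with IV 1). With so few pairs and so wide a range, these correlations cannot decide whether libraries are paired. The remaining settings gave 1520 to 2276 calls. Sign changes were found among uncalled genes only. By limma voom Ctrc and Cel were 0.13 and 1.30, and with 1 library left out they ranged from -5.36 to 0.64 and from -6.70 to 0.89. Cd3e was -0.058 with the block, -0.085 without IP 4 and IV 1, and -0.069 to 0.50 with 1 library left out. Cdh1 was -0.19 without IP 4 and IV 1 and -0.11 to 1.34 with 1 library left out, in which case Lgals4 ranged from -0.53 to 0.026 and Xist from -0.39 to 0.027. The cause was not tested. Depth limits rare transcripts mostly through IV 2, and with 3 libraries a group an exact rank test could not go below p = 0.1.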

Other observations

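Further genes of the widest gaps belong to none of the groups above. Car4, a membrane-bound carbonic anhydrase, had 21, 16.8 and 28.2 CPM in IP and 1.24, 1.6 and 0.571 CPM in IV (log2 fold change 4.43 ± 0.38 (SE; edgeR adjusted p = 0.000212)). Slc7a11, the cystine transporter subunit that feeds glutathione synthesis, had 23.5, 24.9 and 25.5 and 5.53, 1.33 and 1.23 CPM (log2 fold change 3.12 ± 0.48 (SE; edgeR adjusted p = 0.00311)); it was picked after its values were seen. Both were high in all 3 IP libraries. On the IV side, Spon2, a secreted matrix protein, had 4.97, 5.46 and 5.8 CPM in IP and 23.8, 34.2 and 26.4 CPM in IV (log2 fold change -2.37 ± 0.19 (SE; edgeR adjusted p = 0.000135)). Cbr2, a carbonyl reductase of resident macrophages and lung, had 3.23, 2.92 and 3.17 and 13, 16.3 and 12.4 CPM (log2 fold change -2.15 ± 0.25 (SE; edgeR adjusted p = 0.000824)), and Gsta2, a glutathione transferase, had 7.74, 9.95 and 9.3 and 51.3, 36.8 and 29.7 CPM (log2 fold change -2.13 ± 0.23 (SE; edgeR adjusted p = 0.00069)). The groups of Spon2, Cbr2 and Gsta2 did not overlap, which was a condition for naming them. Their IP values were close together, while the IV values of Gsta2 ran from 29.7 to 51.3 CPM. Chst3, a chondroitin sulfotransferase, had 1.09, 0.762 and 1.58 and 4.62, 16.5 and 8.54 CPM (log2 fold change -3.06 ± 0.47 (SE; edgeR adjusted p = 0.00317)), IV 2 being the highest library as for the B cell genes.

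Of 4 Y-linked genes, IV 2 had 13 counts in all (Ddx3y 8, Eif2s3y 3 and Uty 2), PBS 1 had 2 of Kdm5d, and each other library had 0. Xist had 123, 115 and 155 CPM in IP and 92.1, 181 and 165 CPM in IV.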
